A study of Canis lupus familiaris with 69 samples.

Results

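The comparison set 10 dogs with pyometra against 6 dogs with sterile uterine lesions, all 16 previously given progesterone compounds to suppress the signs of heat. The sterile lesions were cystic endometrial hyperplasia (CEH) in 4 dogs (cases 29, 81, 162 and 196) and mucometra in 2 dogs (cases 182 and 216). The dogs with pyometra were cases 185, 186, 205, 206, 213, 218, 222, 228, 229 and 231. These 16 dogs were chosen by diagnosis and treatment among 69 dogs, each with 1 expression array of its endometrium. The others used here were 7 dogs with pyometra and 25 with CEH or mucometra that had not been treated, and 21 dogs in normal diestrus, of which 1 had been treated. The diagnosis was read off the sample titles, whereas treatment, cycle stage and cervix condition are in no sample label and were read by eye from colour bars that the study drew for each case, so a misread bar would put a dog in the wrong group. The compounds, their doses and the time since treatment were not given in the sources used here, nor was the age of each dog. Endometrium was cut from the frozen uterine wall by scalpel, and each dog was a separate animal.

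Pyometra is a bacterial infection that fills the uterus of the bitch with pus, usually in the luteal phase, when progesterone drives glandular secretion, closes the cervix and dampens local immunity. In CEH the glands thicken and become cystic, and in mucometra the uterus holds sterile mucus. Bacterial products such as lipopolysaccharide (LPS) are sensed by Toll-like receptors, and cytokines and chemokines then draw neutrophils and monocytes out of the vessels into the tissue. Both cells kill bacteria with stored antimicrobial proteins and proteases, and the epithelium secretes inhibitors that restrain those proteases.

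The values were log2 expression, 1 probe set per gene and 15947 genes. A call required an at least 2-fold difference with an adjusted p under 0.05, and only such genes are said to have risen or fallen. Each log2 fold change is pyometra minus sterile with its standard error (SE), and each p of a gene is limma's, adjusted by Benjamini-Hochberg over all 15947 genes. Array medians over these genes ran from 6.99 to 7.13 in treated pyometra and from 6.99 to 7.05 in treated sterile lesions. Markers of endometrium were measured in both groups, with a group mean over log2 5 for 18 of 18 simple epithelium, 15 of 15 stromal fibroblast and 14 of 14 smooth muscle markers. On the first principal component of the 16 dogs, which held 40.9% of the variance, pyometra lay between 2.1 and 49.6 and sterile lesions between -70.1 and -23.4. All 10 treated dogs with pyometra had another treated dog with pyometra as their most similar array among the 69. Mucometra dog 216 was most similar to untreated pyometra dog 100, and the differences between these 2 arrays had an SD of 0.237, the smallest of all pairs, with 0.293 for the next pair and a median of 0.699. Dog 216 entered the comparison under its label. The study's colour bars drew dog 216 with an open cervix, and every other dog without pyometra with a closed one. Differences without it are given for only some of the genes in which it stood apart from the CEH dogs. All 10 dogs with pyometra were in the diestrus stage, but only 3 of the 6 sterile ones (29, 81 and 196), and the other 3 were in anestrus. Cases of pyometra ran from 185 to 231 and sterile cases from 29 to 216, so stage and case number moved in part with the diagnosis. The labels do not say what the case number follows. In RNA from whole tissue, fewer cells of a type and less RNA per cell cannot be told apart.

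Of the 15947 genes, 852 rose in treated pyometra (5.34%) and 375 fell (2.35%), 1227 in all (7.69%). Every dog with pyometra lay above every sterile dog for 483 genes (3.03%) and below every sterile dog for 392 (2.46%). With both conditions together, 310 genes rose and 122 fell without overlap. The median log2 fold change of all genes was -0.034. Among the 3 sterile dogs in the diestrus stage against the 10 with pyometra, 1061 genes rose and 572 fell, and 1082 of the 1227 were called again. With the case number as a covariate 887 genes changed, of which 771 were among the 1227.

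Of 16 measured secreted antimicrobial proteins and antiproteases 11 rose and none fell, with a median of 1.65, where 5.34% of all genes rose and 2.35% fell. SLPI, an inhibitor of neutrophil elastase that also kills bacteria, ran from 12.36 to 13.14 in treated pyometra (median 12.93) and from 6.01 to 10.04 in treated sterile lesions (median 6.17), with a median of 6.09 in normal diestrus. It was 51.6-fold higher (5.69 ± 0.50, adjusted p = 1.53e-06). The dogs with pyometra were nearly level, while the 4 CEH dogs lay at 6.22 or lower and the mucometra dogs 216 and 182 between the groups at 8.66 and 10.04. PI3, or elafin, another inhibitor of elastase, ran from 10.57 to 12.02 (median 11.10) in pyometra and from 6.07 to 7.43 (median 6.6) in sterile lesions, a log2 difference of 4.49 ± 0.25 (adjusted p = 2.82e-08). Here the mucometra dogs, at 6.08 and 6.89, were not apart from CEH. LTF, the iron-binding protein lactoferrin, rose by 3.89 ± 0.46 (adjusted p = 2.17e-05), with 10.65 to 11.84 in pyometra and 5.61 to 9.44 in sterile lesions. SAA1, an acute phase protein, rose by 4.90 ± 0.51 (adjusted p = 8.8e-06), with 10.71 to 12.96 in pyometra and 5.63 to 9.57 in sterile lesions. Near-identical family members can share probes with SAA1, so the gene behind that signal is uncertain. For LTF and SAA1 CEH dog 196 was the highest treated sterile dog and the 2 treated groups did not overlap. Normal diestrus, however, ran from 6.16 to 12.15 in LTF, from 4.85 to 12.11 in SAA1 and from 6.46 to 10.58 in PI3. Some healthy dogs thus reached the range of treated pyometra in each of these 3 genes.

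S100A12, S100A8 and S100A9, calcium-binding alarmins that fill the cytoplasm of neutrophils, rose by 5.32 ± 0.40 (adjusted p = 3.07e-07), 4.91 ± 0.37 (3.07e-07) and 4.91 ± 0.31 (6.35e-08). S100A12 ran from 9.91 to 12.32 (median 10.82) in treated pyometra and from 4.49 to 6.6 (median 5.65) in treated sterile lesions. S100A8 ran from 8.80 to 11.54 (median 10.46) in pyometra and from 4.15 to 6.33 (median 5.56) in sterile lesions. For all of them dogs 213 and 218 were the lowest with pyometra, and even these lay more than 2 log2 units above the highest sterile dog. Of 16 measured members of the S100 family, 7 rose and none fell, with a median of 0.75, and the other one named here, S100A4 of macrophages and fibroblasts, rose by 1.51 ± 0.41 (adjusted p = 0.0118). Of 21 measured neutrophil markers 16 rose and none fell, with a median of 2.27. That list also holds the alarmins above, LTF and MMP9, so the counts are not separate. Its other members included CXCR2, the receptor through which neutrophils follow CXCL8, and CSF3R, the receptor for granulocyte colony-stimulating factor. CXCR2 ran from 6.00 to 8.80 (median 6.98) in pyometra and from 4.39 to 4.93 (median 4.86) in sterile lesions (2.27 ± 0.30, adjusted p = 5.32e-05). CSF3R ran from 7.43 to 9.32 (median 8.99) in pyometra and from 6.01 to 7.02 (median 6.22) in sterile lesions (2.34 ± 0.25, adjusted p = 1.21e-05). The sterile dogs stood close together in both, and no dog with pyometra reached their range. Averaged over the neutrophil list, with each gene centred on its mean in the 69 dogs, treated pyometra ran from 1.24 to 2.88 and treated sterile lesions from -0.72 to -0.18. Normal diestrus ran from -0.67 to -0.17 on the same scale.

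**Figure D1:**
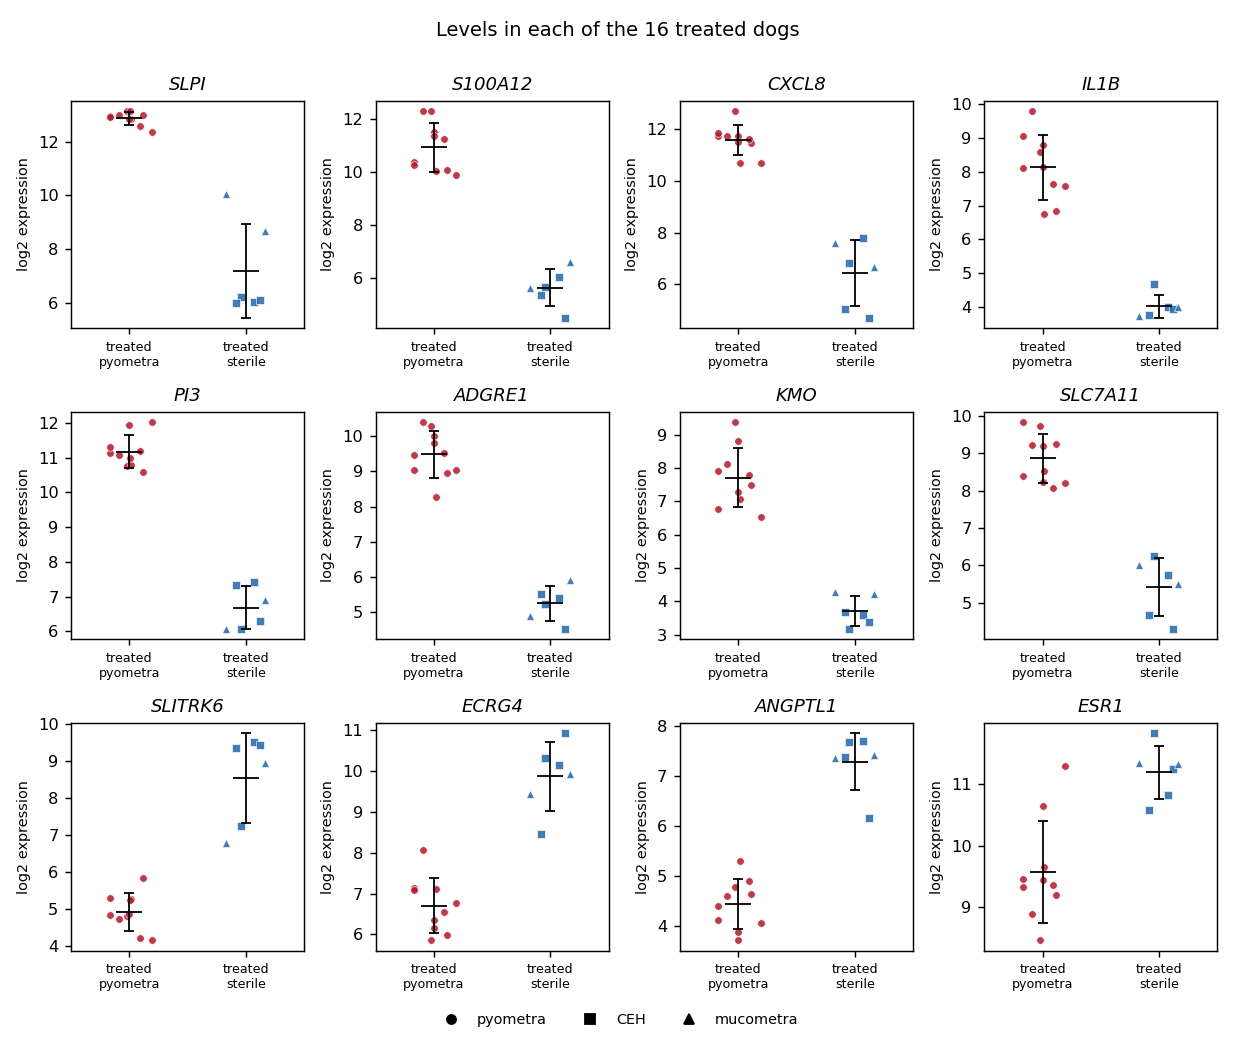
Log2 expression of 12 genes in each of the 10 treated dogs with pyometra (left) and the 6 treated dogs with CEH or mucometra (right), with the mean and SD of each group. SLPI, S100A12, CXCL8, IL1B, PI3, ADGRE1, KMO and SLC7A11 lie higher in every dog with pyometra, SLITRK6, ECRG4 and ANGPTL1 lower in every one, and ESR1 overlaps, with dog 213 at 11.29 among the sterile dogs.

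Among chemokines, the proteins that direct leukocytes into tissue, 14 of 24 rose and none fell, with a median of 1.38. CXCL8, the main attractant of neutrophils, ran from 10.69 to 12.70 (median 11.66) in treated pyometra and from 4.71 to 7.78 (median 6.76) in treated sterile lesions, 35.0-fold higher (5.13 ± 0.42, adjusted p = 7.62e-07). CCL3, an attractant of monocytes and neutrophils, rose by 2.91 ± 0.36 (adjusted p = 3.59e-05), and CCL2, the main attractant of monocytes, by 2.90 ± 0.47 (0.000331). Neither gene's groups overlapped, but the sterile dogs were themselves spread, from 6.17 to 9.29 for CCL2 against 9.85 to 12.05 in pyometra. CXCL14, made by epithelium, rose by 2.52 ± 0.49 (adjusted p = 0.0013), and 9 of the 10 dogs with pyometra exceeded all sterile dogs. CXCL10, an interferon-induced attractant of T cells, was not of this kind. It ran from 6.91 to 10.50 in pyometra, while the CEH dogs lay between 4.08 and 6.31 and the mucometra dogs at 8.21 and 8.93, inside the range of pyometra. Its difference of 2.45 ± 0.73 (adjusted p = 0.0188) lost the call without CEH dog 81 (2.03, adjusted p = 0.0501) or 162 (2.11, 0.0516), and against the 2 mucometra dogs alone it was 0.07 (0.969). Against mucometra alone only 4 of the 24 chemokines rose, among them CXCL8 (4.44, adjusted p = 0.000204) and CCL3 (2.05, 0.00953).

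Of 26 cytokines 14 rose and 1 fell, with a median of 1.09. IL1B, the secreted interleukin 1 beta of activated myeloid cells, ran from 6.75 to 9.81 (median 8.13) in treated pyometra and from 3.72 to 4.68 (median 3.96) in treated sterile lesions. The sterile values sat within 1 log2 unit of each other near the low end of the scale, and the dogs with pyometra were 17.3-fold higher and far more spread (4.12 ± 0.38, adjusted p = 2.53e-06). IL1A, its sister cytokine released by damaged cells, rose by 3.2 ± 0.45 (adjusted p = 9.56e-05), and IL1RN, the antagonist that blocks their receptor, by 2.77 ± 0.23 (7.62e-07). IL6, which drives the acute phase response, ran from 5.41 to 9.73 in pyometra and from 4.15 to 6.64 in sterile lesions (3.06 ± 0.53, adjusted p = 0.000517). The only overlap of the 2 treated groups in IL6 was dog 213, whose 5.41 stood apart from the next dog at 7.5. However, IL6 ran from 3.54 to 8.01 in normal diestrus and from 3.83 to 9.04 in untreated sterile lesions. Some of these dogs thus reached the range of treated pyometra. TNF, tumor necrosis factor, lay between 6.36 and 7.57 in pyometra and between 4.81 and 5.72 in sterile lesions (1.66 ± 0.21, adjusted p = 4.07e-05). The 1 member that fell was TGFB2, a growth factor of epithelium and stroma (-1.10 ± 0.39, adjusted p = 0.0468), and that call rested on CEH dog 81 at 11.26, since the difference shrank to -0.58 without it. The TGFB2 call was also lost on leaving out any of CEH dogs 162 and 196, mucometra dog 216 and every dog with pyometra but 228 (adjusted p 0.0506 to 0.0722).

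In the list of Toll-like receptors and LPS recognition 7 of 20 rose and none fell, with a median of 0.84. AOAH, the enzyme that removes acyl chains from LPS and so inactivates it, ran from 8.20 to 10.11 (median 8.75) in treated pyometra and from 4.75 to 7.45 (median 5.61) in treated sterile lesions (3.12 ± 0.38, adjusted p = 3.51e-05). CD14, which hands LPS to its receptor, ran from 9.58 to 10.76 in pyometra and from 6.81 to 8.28 in sterile lesions (2.86 ± 0.20, adjusted p = 1.73e-07). TLR4, the LPS receptor itself, rose by 1.34 ± 0.24 (adjusted p = 0.000632). The receptors for bacterial lipoproteins and for single-stranded RNA rose as well, by 2.36 ± 0.31 for TLR1 (adjusted p = 5.32e-05), 2.16 ± 0.33 for TLR2 (0.000185) and 2.32 ± 0.33 for TLR8 (0.000108). No pyometra value overlapped a sterile one for AOAH, CD14, TLR1, TLR2 or TLR8, and TLR4 overlapped in dog 185 alone, at 8.05 against 8.15 in CEH dog 196. In normal diestrus TLR4 ran from 6.95 to 10.06, where dog 122 exceeded every treated dog with pyometra.

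All 17 measured markers of macrophages and monocytes rose, with a median of 1.86 and values between 1.10 and 4.23. ADGRE1, the surface receptor known in the mouse as F4/80, ran from 8.28 to 10.40 (median 9.5) in treated pyometra and from 4.52 to 5.91 (median 5.32) in treated sterile lesions (4.23 ± 0.29, adjusted p = 1.26e-07). MS4A7, a membrane protein of macrophages, rose by 3.76 ± 0.42 (adjusted p = 1.4e-05), and FCGR1A, the high-affinity receptor for IgG, by 3.53 ± 0.39 (1.33e-05). TYROBP, an adaptor of activating receptors on myeloid and NK cells, rose by 2.86 ± 0.36 (adjusted p = 3.68e-05). SMPDL3A, a phosphodiesterase induced in cholesterol-laden human macrophages, was among the largest differences of all genes at 5.17 ± 0.50 (adjusted p = 3.76e-06), with 11.48 to 12.83 in pyometra. Its sterile values ran from 4.57 in CEH dog 81 to 8.90 in both mucometra dogs. The list mean ran from 1.11 to 2.43 in pyometra and from -1.43 to 0.58 in sterile lesions, with -1.22 to 0.19 in normal diestrus. Against the mucometra dogs alone 6 of the 17 rose, and against the CEH dogs alone all 17.

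Lymphocyte markers were less uniform among the dogs. Of 16 measured markers of B and plasma cells 10 rose and none fell, with a median of 1.53, but for none of them did the groups separate. TNFRSF17, the survival receptor of plasma cells, ran from 3.51 to 8.75 in treated pyometra and from 3.02 to 6.09 in treated sterile lesions (2.77 ± 0.69, adjusted p = 0.00677). POU2AF1, a transcription coactivator of B cells, rose by 2.56 ± 0.61 (adjusted p = 0.00508), MZB1, an immunoglobulin chaperone, by 2.47 ± 0.50 (0.00169), and CD79A, part of the B cell receptor, by 2.30 ± 0.58 (0.00755). For these 4 genes dogs 231 and 213 were the lowest with pyometra, and mucometra dog 182 was the highest sterile dog. The list mean was 0.186 in dog 231, 0.664 in dog 213 and 0.848 in dog 228, against a median of 1.84 in pyometra and 1.51 in dog 182. Against the 2 mucometra dogs alone no B or plasma cell marker was called, and with the case number as a covariate 2 of the 16 rose. Of 19 T and NK cell markers only CD4, CD2 and CD3D rose, with a median of 0.46. CD4 rose by 2.94 ± 0.33 (adjusted p = 1.43e-05) without overlap, 7.48 to 9.91 in pyometra and 5.04 to 6.53 in sterile lesions. This helper T cell receptor is in dogs also carried by neutrophils. CD2 and CD3D, surface proteins of T cells, had smaller differences of 1.55 ± 0.49 (adjusted p = 0.025) and 1.36 ± 0.44 (0.0274) and overlapped with mucometra dog 182, which exceeded every dog with pyometra in CD3D. The call of CD2 was lost without CEH dog 29, 81 or 196 (adjusted p 0.0628 to 0.0715) and that of CD3D without any 1 CEH dog (0.0571 to 0.0725). Leaving out 1 dog moved the count of T and NK markers called between 1 (without dog 29, 81 or 196) and 5 (without dog 182 or 216). GATA2, a transcription factor of mast cells and of endometrial stroma, fell by 1.29 on the log2 scale (SE 0.30, adjusted p = 0.00399), and none of the 7 other mast cell markers was called.

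**Figure D2:**
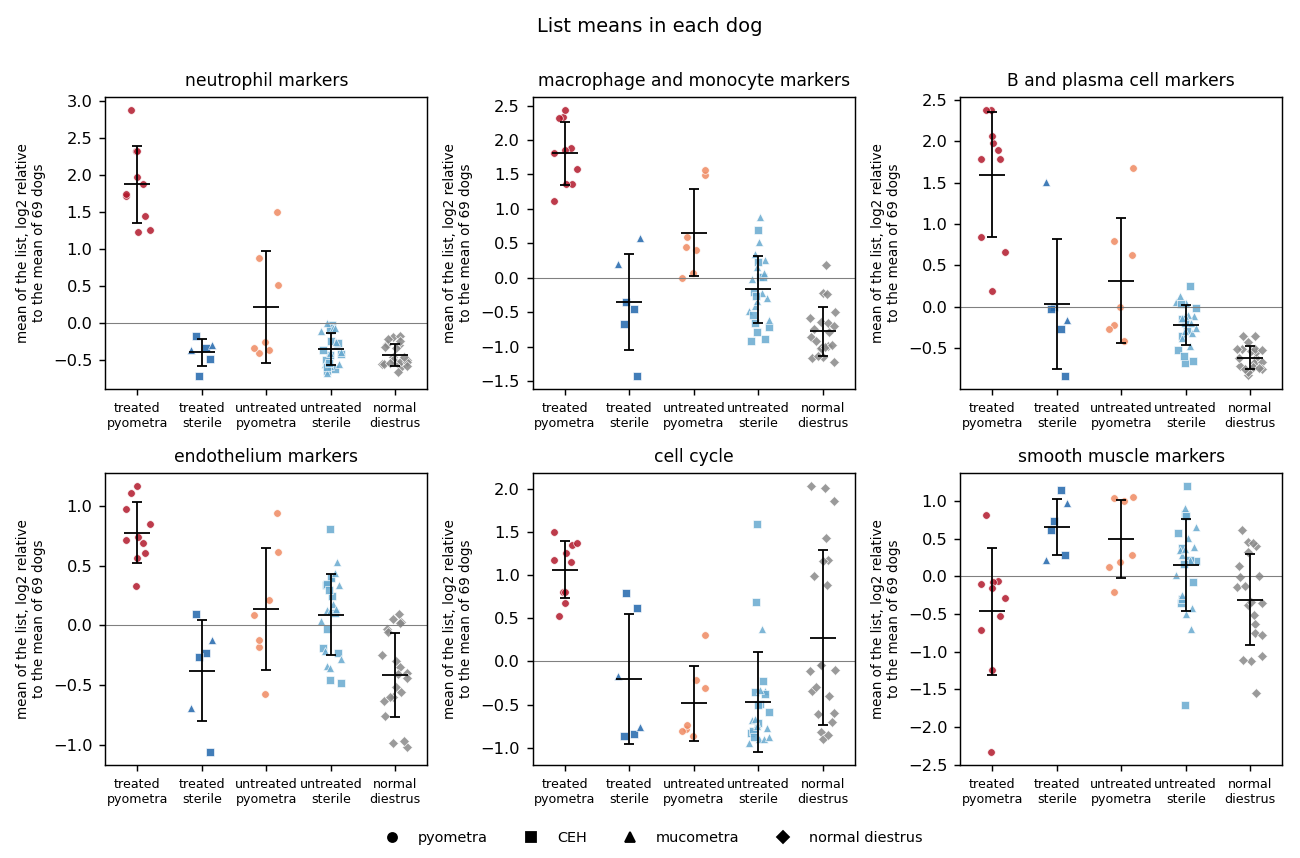
Mean of 6 gene lists in each dog, each gene relative to its mean over the 69 dogs (log2), for treated pyometra, treated CEH or mucometra, untreated pyometra, untreated CEH or mucometra and normal diestrus, with group mean and SD. Treated pyometra lies above all treated sterile dogs in neutrophil markers (lowest 1.24 against highest -0.18) and overlaps them in B and plasma cell markers, where dog 231 lies at 0.186.

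Of the 21 metalloproteinases and metalloproteinase inhibitors measured 7 rose and 1 fell, with a median of 0.56, and several were as high in a mucometra dog as in pyometra. With 2 mucometra dogs, their difference from CEH was not tested. MMP13, a collagenase, ran from 8.15 to 11.93 (median 10.16) in treated pyometra, while the CEH dogs lay between 3.88 and 4.24 and the mucometra dogs at 8.06 (182) and 10.09 (216). Its 19.3-fold difference (4.27 ± 0.91, adjusted p = 0.00226) was 5.14 without dog 216 (0.000176) and 0.94 against mucometra alone (0.586). MMP1, interstitial collagenase, ran from 3.51 to 10.74 (median 8.59) in pyometra and from 2.32 to 8.43 (median 3.28) in sterile lesions, with dog 216 at 8.43 and the next at 4.02. Its difference (3.54 ± 1.14, adjusted p = 0.0281) was 4.42 without dog 216 (0.00566) and lost the call when any 1 of the CEH dogs was left out (0.0553 to 0.0661), and dog 213 at 3.51 was among the sterile dogs. MMP12, the macrophage elastase, rose by 3.46 ± 0.80 (adjusted p = 0.00411), again with dog 216 highest among the sterile dogs at 8.05, and the difference was 4.05 without it (0.00109). MMP9, the gelatinase stored in neutrophil granules, was low in both mucometra dogs too. It ran from 6.31 to 11.09 in pyometra and from 4.36 to 5.37 in all 6 sterile dogs (3.55 ± 0.54, adjusted p = 0.000188). The member that fell was MMP16, a membrane-bound metalloproteinase (-1.22 ± 0.27, adjusted p = 0.00261).

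In coagulation and fibrinolysis 8 of 16 rose and none fell, with a median of 1.14. TFPI2, an inhibitor of plasmin and tissue factor made in quantity by the placenta, ran from 8.96 to 11.65 in treated pyometra. The CEH dogs lay between 3.25 and 5.56 and the mucometra dogs at 8.06 and 10.84, so that its difference of 4.56 ± 0.85 (adjusted p = 0.000926) was 5.5 without dog 216 (1.99e-05) and 1.26 against mucometra alone (0.298). SERPINE2, an inhibitor of thrombin and urokinase, separated the groups, with 10.10 to 11.63 in pyometra and 6.47 to 8.23 in sterile lesions (3.41 ± 0.29, adjusted p = 1.1e-06). PLAU, urokinase itself, also separated them, with 8.24 to 10.22 in pyometra and 5.33 to 7.34 in sterile lesions (2.63 ± 0.32, adjusted p = 3.51e-05).

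Prostaglandin genes moved both ways, 6 of 22 higher and 4 lower, with a median of 0.22. PTGS2, or cyclooxygenase 2, which makes the common precursor of prostaglandins, ran from 9.40 to 11.41 (median 10.69) in treated pyometra and from 3.97 to 8.51 (median 6.54) in treated sterile lesions (4.09 ± 0.60, adjusted p = 0.000139). Both mucometra dogs, at 8.51 and 8.49, lay above all 4 CEH dogs, of which the highest was 6.89. PTGES, which converts that precursor to prostaglandin E2, rose by 2.08 ± 0.37 (adjusted p = 0.000627), and SLCO2A1, the carrier that takes prostaglandins up, by 2.28 ± 0.28 (3.88e-05). On the side of the receptors, PTGER3, a receptor for prostaglandin E2, ran from 4.80 to 7.91 (median 6.28) in pyometra and from 7.69 to 10.31 (median 9.54) in sterile lesions, 8.53-fold lower (-3.09 ± 0.44, adjusted p = 0.000118). Dog 213 with 7.91 and dog 216 with 7.69 made its only overlap. PTGFR, the receptor for prostaglandin F2 alpha, through which the myometrium contracts, fell without overlap (-1.92 ± 0.32, adjusted p = 0.00038), with 4.64 to 5.55 in pyometra and 5.63 to 8.65 in sterile lesions. The synthases of prostacyclin and of prostaglandin D2, PTGIS and PTGDS, were lower by 1.46 (SE 0.38, adjusted p = 0.00951) and 1.15 (SE 0.31, 0.0111).

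Of 12 genes of tryptophan breakdown, a pathway that starves microbes and T cells of this amino acid and yields kynurenines, 5 rose and none fell. KMO, which hydroxylates kynurenine, ran from 6.52 to 9.38 (median 7.64) in treated pyometra and from 3.17 to 4.27 (median 3.63) in treated sterile lesions (4.0 ± 0.36, adjusted p = 2.13e-06). IDO1, the first enzyme of the pathway, ran from 7.43 to 11.71 in pyometra, between 4.66 and 5.98 in CEH and at 8.16 and 10.63 in the mucometra dogs. Its difference of 2.76 ± 0.89 (adjusted p = 0.0293) was 3.56 without dog 216 (0.00303), was 0.00 against mucometra alone (0.999) and lost the call without any 1 of the CEH dogs (0.0608 to 0.0805). The others were KYNU, the kynureninase (1.59 ± 0.38), IDO2, a relative of IDO1 (1.54 ± 0.30), and AFMID, the formamidase of the second step (1.22 ± 0.27). Of 22 interferon response genes 5 rose, with a median of 0.32: CXCL10, ISG20, a ribonuclease (1.90 ± 0.29), GBP5, a guanylate-binding protein (1.51 ± 0.42), IRF1, a transcription factor (1.41 ± 0.33), and OAS2, a sensor of viral RNA (1.30 ± 0.36). Only ISG20 separated the groups, with 7.59 to 9.92 in pyometra and 5.96 to 6.80 in sterile lesions. OAS2 dropped below the fold of the call without CEH dog 81 (0.92), and 3 interferon genes were then called in all.

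Of 17 complement genes 9 rose and none fell, with a median of 1.02. C5AR1, the receptor for the attractant C5a on neutrophils and macrophages, ran from 7.21 to 9.88 in treated pyometra and from 4.75 to 6.01 in treated sterile lesions (2.94 ± 0.34, adjusted p = 1.81e-05). C3, the central component, rose by 2.39 ± 0.54 (adjusted p = 0.00352), and C6, part of the lytic pore, by 2.37 ± 0.68 (0.0158). C3 ran from 11.10 to 12.24 in pyometra and stood at 11.22 and 10.80 in the mucometra dogs, and C6 ran from 8.12 to 11.06 in pyometra and stood at 9.52 and 9.38 in the mucometra dogs, against which alone its difference was 0.34 (adjusted p = 0.778). CEH dog 81 was the lowest dog in both genes. CD55, which protects host cells from complement, rose without overlap by 2.34 ± 0.38 (adjusted p = 0.00033).

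Endothelial markers rose for 10 of 17 genes and fell for none, with a median of 1.27. PLVAP, which forms the diaphragms of fenestrated vessels, ran from 9.37 to 10.63 (median 10.10) in treated pyometra and from 6.69 to 8.71 (median 7.93) in treated sterile lesions (2.35 ± 0.29, adjusted p = 3.56e-05). SELP, the selectin on which leukocytes roll, rose by 2.11 ± 0.19 (adjusted p = 2.27e-06), PECAM1, the junction protein they pass, by 1.64 ± 0.24 (0.000124), and VWF, the carrier of factor VIII, by 1.61 ± 0.19 (1.93e-05). None of these 4 overlapped, and dog 229 had the highest value with pyometra in PLVAP, PECAM1 and VWF. Of the 17, 9 were called against the mucometra dogs alone. The list mean ran from 0.33 to 1.16 in pyometra and from -1.06 to 0.09 in sterile lesions. Stromal fibroblast and simple epithelium markers had 1 called gene each, LUM, a matrix proteoglycan (1.25 ± 0.41, adjusted p = 0.0306), and MUC1, a surface mucin (1.41 ± 0.47, 0.0354). With 15 and 18 genes measured, both counts were near the 5.34% of all genes that rose. The LUM call was lost without dog 206, 228, 29, 81 or 196 (highest adjusted p 0.0597), and the MUC1 call without dog 185, 186, 222, 231, 29, 81 or 162 (highest adjusted p 0.0883).

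**Figure D3:**
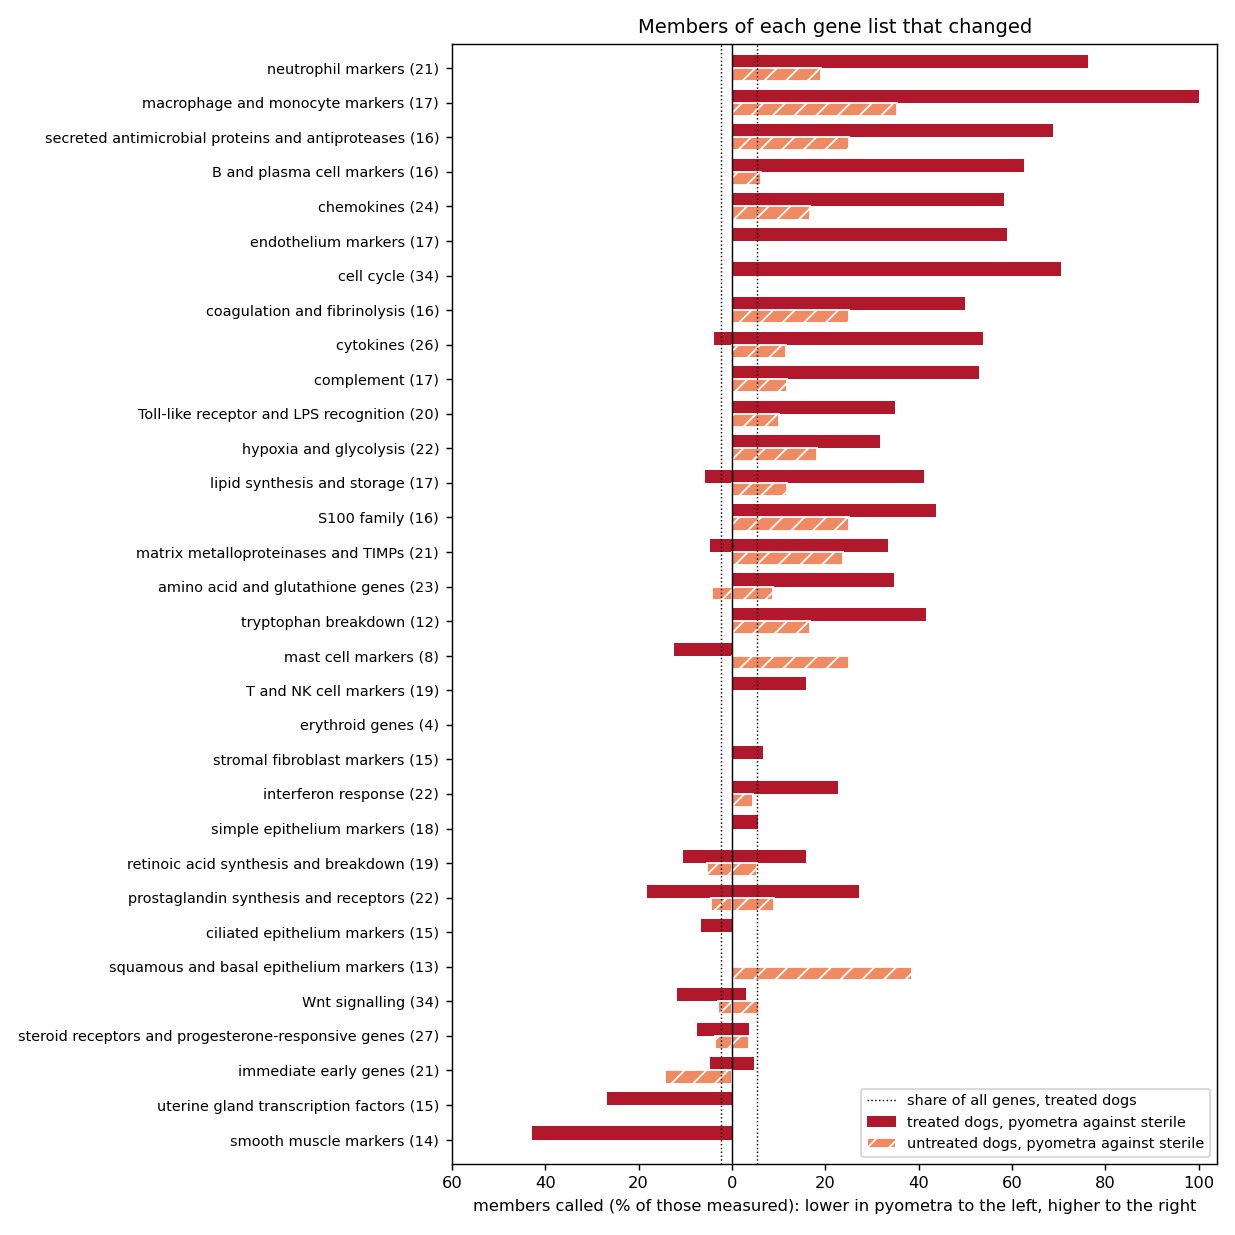
Percent of the measured members of each gene list that rose (right) or fell (left) in pyometra against sterile lesions, in treated and in untreated dogs, with dotted lines at the share of all genes. In treated dogs all 17 macrophage and monocyte markers and 16 of 21 neutrophil markers rose, against 5.34% of all genes.

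The counts of several lists moved with the choice of sterile dogs and with the case number as a covariate. The 2 mucometra dogs were both in anestrus and all 10 dogs with pyometra in diestrus, so mucometra and stage cannot be told apart among them. Against the 2 mucometra dogs alone, a smaller comparison, 482 of all 15947 genes rose and 246 fell. There 7 of 26 cytokines, 5 of 16 antimicrobial proteins and antiproteases, 4 of 16 members of the S100 family and 2 of 21 metalloproteinases rose. So did 2 of 17 complement, 4 of 16 coagulation, 3 of 22 prostaglandin and 2 of 12 tryptophan genes. The same held for 2 of 22 hypoxia, 4 of 23 amino acid, 1 of 19 retinoic acid and 1 of 22 interferon genes. Of the prostaglandin genes 1 fell, and no Wnt, retinoic acid or steroid gene did. Cell cycle genes rose for 27 of 34 there. With the case number as a covariate 582 of all 15947 genes rose and 305 fell. There 7 of 24 chemokines, 3 of 21 metalloproteinases, 4 of 17 complement genes, 3 of 12 tryptophan genes and 1 of 19 retinoic acid genes rose. So did 3 of 22 hypoxia genes, 5 of 16 coagulation genes, 1 of 22 interferon genes and 1 of 19 T and NK cell markers. Of 34 Wnt genes 2 fell. Among dogs in the diestrus stage 1061 of all 15947 genes rose and 572 fell. There 13 of 22 hypoxia genes, 8 of 22 interferon genes, 6 of 19 T and NK cell markers and 4 of 15 stromal markers rose. Of 27 steroid genes 7 fell, and of 22 prostaglandin genes 2. No list count was tested against these counts over all genes.

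Genes of nutrient uptake and storage rose in several lists. In the list of amino acid and glutathione genes 8 of 23 rose and none fell, with a median of 0.56. SLC7A11, the exchanger that brings in cystine for glutathione, ran from 8.06 to 9.83 (median 8.86) in treated pyometra and from 4.30 to 6.26 (median 5.62) in treated sterile lesions (3.45 ± 0.33, adjusted p = 3.76e-06). SLC6A14, a carrier for neutral and basic amino acids in epithelium, ran from 5.90 to 9.80 in pyometra and from 4.46 to 5.22 in sterile lesions (3.18 ± 0.52, adjusted p = 0.000342). The groups did not overlap for either, and in SLC6A14 the spread lay within pyometra, with dogs 231 and 213 low and dog 205 high. SLC1A4 and SLC1A5, carriers of neutral amino acids and glutamine, rose by 2.47 ± 0.33 (adjusted p = 6.43e-05) and 1.62 ± 0.28 (0.000495). Of 17 genes of lipid synthesis and storage 7 rose and 1 fell. DGAT2, which makes triglycerides, rose by 2.92 ± 0.35 (adjusted p = 3.09e-05), PLIN2, the coat of lipid droplets, by 1.92 ± 0.25 (5.73e-05), ACOXL, a relative of peroxisomal acyl-CoA oxidases, by 3.89 ± 0.58 (0.000173), and FABP3, a carrier of fatty acids, by 2.06 ± 0.35 (0.000436). PLIN4, a droplet coat of adipocytes and muscle, fell (-1.42 ± 0.27, adjusted p = 0.00107). Of 22 hypoxia and glycolysis genes 7 rose and none fell, with a median of 0.83, among them SLC2A3, a glucose carrier of leukocytes (1.65 ± 0.34), HK2, the hexokinase that traps glucose in the cell (1.53 ± 0.21), PFKFB3, an activator of glycolysis (1.40 ± 0.28), and ADM, the vasodilator adrenomedullin (1.24 ± 0.29). HK2 separated the groups, at 6.38 to 7.81 in pyometra and 5.14 to 6.26 in sterile lesions. ATP12A, the proton and potassium pump of colon and other epithelia, was spread widely in both groups. It ran from 5.40 to 11.61 (median 11.09) in pyometra and stood at 10.33 in CEH dog 196 but at 5.97 or lower in the other sterile dogs (4.23 ± 1.09, adjusted p = 0.00842). The call was lost among dogs in the diestrus stage (3.60, adjusted p = 0.0926) and against mucometra alone (4.37, 0.0747).

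Genes of retinoic acid, which in rodents keeps uterine epithelium from turning squamous, rose for 3 of 19 and fell for 2. DHRS9, a retinol dehydrogenase, ran from 9.15 to 11.91 in treated pyometra and from 4.73 to 11.23 in treated sterile lesions (3.18 ± 0.77, adjusted p = 0.0055). Both mucometra dogs, at 11.23 and 10.39, were in its pyometra range. CYP26B1, which degrades retinoic acid, separated the groups, with 6.95 to 8.69 in pyometra and 5.83 to 6.65 in sterile lesions (1.54 ± 0.22, adjusted p = 9.76e-05). RBP4, the carrier of retinol, rose by 2.19 ± 0.74 (adjusted p = 0.036), a call lost without CEH dog 29, 81 or 162 and without any 1 of the dogs with pyometra but 213, 229 and 231 (highest adjusted p 0.0853). ALDH1A1, which makes retinoic acid, fell (-2.26 ± 0.56, adjusted p = 0.00633), but the call was lost among dogs in the diestrus stage (-1.60, 0.0868) and against mucometra alone (-2.46, 0.0664). Also lower was LRAT, which stores retinol as esters (-1.45 ± 0.44, 0.0216, but 0.0552 to 0.0656 without CEH dog 29, 81 or 196).

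Of 34 cell cycle genes 24 rose and none fell, with a median of 1.22. RRM2, which makes the building blocks of DNA, ran from 7.80 to 9.12 (median 8.62) in treated pyometra and from 5.57 to 7.23 (median 6.61) in treated sterile lesions (2.05 ± 0.27, adjusted p = 6.27e-05), without overlap. MKI67, the proliferation antigen, ran from 8.54 to 9.75 in pyometra and from 5.15 to 8.86 in sterile lesions (2.21 ± 0.52, adjusted p = 0.00443), where CEH dogs 81 and 162 at 8.86 and 8.79 lay in the pyometra range. TOP2A, which untangles DNA, rose by 2.06 ± 0.47 (adjusted p = 0.00341), and KIF11, a motor of the mitotic spindle, by 2.21 ± 0.43 (0.00125). E2F1, a transcription factor of entry into S phase, was higher by 0.96 ± 0.25 (adjusted p = 0.00811), just under the fold of the call. It passed that fold without CEH dog 81 (1.13) or 162 (1.14) or pyometra dog 205 (1.01) or 229 (1.02). The list mean ran from 0.53 to 1.5 in pyometra, from -0.86 to 0.80 in sterile lesions and up to 2.03 in normal diestrus.

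Of the 12 largest falls 10 were in genes outside the lists. SLITRK6, a transmembrane protein known from neurons and the inner ear, ran from 4.16 to 5.84 (median 4.85) in treated pyometra and from 6.78 to 9.5 (median 9.14) in treated sterile lesions, 12.2-fold lower (-3.61 ± 0.39, adjusted p = 1.22e-05). ECRG4, the precursor of a secreted peptide, ran from 5.86 to 8.07 (median 6.66) in pyometra and from 8.45 to 10.93 (median 10.04) in sterile lesions (-3.16 ± 0.35, adjusted p = 1.4e-05). ANGPTL1, a secreted relative of the angiopoietins, ran from 3.71 to 5.30 in pyometra and from 6.15 to 7.70 in sterile lesions (-2.84 ± 0.25, adjusted p = 1.76e-06). All 10 dogs with pyometra were below all 6 sterile dogs in these genes, mucometra dogs included. The same held for DPP6, a partner of potassium channels (-3.04 ± 0.40), MAMDC2, a proteoglycan (-2.83 ± 0.28), LIN7A, a scaffold of cell junctions (-2.55 ± 0.42), and ADAMTSL3, a matrix glycoprotein without protease activity (-2.54 ± 0.37), with adjusted p of 5.77e-05, 4.27e-06, 0.000341 and 0.000126. LIN7A lay within 4.76 to 5.46 in pyometra, while the sterile dogs ranged from 5.70 in dog 216 to 9.01 in dog 162. ENPP6, a phosphodiesterase of choline lipids, fell too (-2.87 ± 0.51, adjusted p = 0.000615), with dog 213 at 9.08 among the sterile dogs. STK32B, a serine/threonine kinase, was lower by 2.38 (SE 0.42, adjusted p = 0.000643), and the unnamed gene LOC609770 by 2.51 (SE 0.40, 0.000265).

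Smooth muscle markers fell for 6 of 14 genes and rose for none, with a median of -1.07, and for 1 of 14 against the mucometra dogs alone. MYH11, the heavy chain of smooth muscle myosin, ran from 5.92 to 10.49 (median 9.64) in treated pyometra and from 10.90 to 11.72 (median 11.18) in treated sterile lesions (-2.12 ± 0.51, adjusted p = 0.00553). PLN, the brake on the calcium pump, fell by 2.16 on the log2 scale (SE 0.40, adjusted p = 0.000881), SYNPO2, a filament-binding protein, by 1.40 (SE 0.30, 0.0022), and MYOCD, the coactivator that switches on smooth muscle genes, by 1.82 (SE 0.49, 0.0112). The groups did not overlap in MYH11, though dog 205 at 5.92 lay far below the rest and dog 229 at 10.49 close to the sterile dogs. The list mean ran from -2.33 in dog 205 to 0.81 in dog 229 and from 0.21 to 1.15 in sterile lesions. Samples were cut by hand, and how much muscle each held was not tested.

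Transcription factors of the uterine glands fell for 4 of 15 genes and rose for none, with a median of -0.78. They were LEF1, an effector of Wnt signals (-1.46 ± 0.33, adjusted p = 0.00352), MSX2, a homeobox factor of epithelium (-1.42 ± 0.33, 0.0045), HOXA10, a homeobox factor needed for implantation in the mouse (-1.25 ± 0.25, 0.00151), and the R-spondin receptor LGR5, a marker of gland progenitors in the mouse that the list also holds (-1.37 ± 0.27, 0.0014). LGR5 ran from 4.83 to 5.85 in treated pyometra and from 5.96 to 8.25 in treated sterile lesions, and HOXA10 from 5.99 to 8.02 in pyometra and from 8.15 to 9.43 in sterile lesions. Both separated the groups, HOXA10 with dog 205 far below the other dogs with pyometra. LEF1 and MSX2 were highest in CEH dog 81, at 11.15 and 9.80, and LEF1 lowest among sterile dogs in dog 182. Against the mucometra dogs alone none of the list was called. In Wnt signalling 1 of 34 rose and 4 fell, LEF1 and LGR5 included, where 5.34% of all genes rose and 2.35% fell. RSPO3, the secreted ligand of LGR5, ran from 5.54 to 10.38 (median 8.66) in pyometra and from 10.09 to 11.43 (median 10.98) in sterile lesions (-2.46 ± 0.50, adjusted p = 0.00166). WNT5A, a ligand of the stroma, rose (1.5 ± 0.36, adjusted p = 0.00476). NDP, or norrin, fell (-1.14 ± 0.36, adjusted p = 0.0273), a call lost without CEH dog 162 or 196 (0.0751 and 0.0761).

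The receptors for the ovarian steroids were lower or did not pass. ESR1, the estrogen receptor alpha, ran from 8.46 to 11.29 (median 9.40) in treated pyometra and from 10.58 to 11.83 (median 11.29) in treated sterile lesions (-1.62 ± 0.34, adjusted p = 0.00189). Of the dogs with pyometra 8 lay below all sterile ones, and dog 213 with 11.29 stood at their median. PGR, the progesterone receptor, ran from 7.97 to 9.96 in pyometra and from 9.06 to 10.54 in sterile lesions, and its difference of -0.86 ± 0.28 (adjusted p = 0.0278) missed the fold of the call. ESR2, the estrogen receptor beta, differed by -0.99 ± 0.62 (adjusted p = 0.262), with 5.42 to 7.55 in pyometra and, among sterile dogs, 10.69 in dog 81 but 5.49, 5.49 and 5.61 in the 3 anestrous ones. NR3C2, the mineralocorticoid receptor, which also binds progesterone, separated the groups, with 6.68 to 7.71 in pyometra and 7.79 to 9.17 in sterile lesions (-1.40 ± 0.21, adjusted p = 0.00014). HSD11B1, which regenerates cortisol, was the only riser among 27 genes of steroid reception and response, where 5.34% of all genes rose. Its difference was 1.74 ± 0.37 (adjusted p = 0.00231), with dog 213 at 6.36 among the sterile dogs. The largest difference in that list was 2.47 in IGFBP1, which was not called. Among 21 immediate early genes, which respond to handling within minutes, JUN fell (-1.20 ± 0.25, adjusted p = 0.00171) and IER3 rose (1.03 ± 0.35, 0.0383). These counts were near the shares of all genes, 2.35% lower and 5.34% higher. The IER3 call was lost without any of CEH dogs 81, 162 and 196 and of pyometra dogs 185, 186, 206, 228 and 231 (adjusted p 0.0567 to 0.0864). Among 15 markers of ciliated epithelium CCDC39, an assembly factor of motile cilia, was the 1 called gene (-1.57 ± 0.24, adjusted p = 0.000185), where 2.35% of all genes fell.

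In the 32 untreated dogs with a lesion the same contrast changed 290 genes (1.82%), of which 227 rose in pyometra (1.42%) and 63 fell (0.395%). These 7 dogs with pyometra and 25 sterile dogs share no animal with the treated comparison. Both comparisons called 130 genes higher and 28 lower, and 1 gene went opposite ways. The 130 were 15.3% of the treated and 57.3% of the untreated rises, and the 28 were 7.47% and 44.4% of the falls. Of the 852 genes that rose in treated dogs, 767 had a positive log2 fold change in untreated dogs, and of the 375 that fell, 300 had a negative one. The median log2 fold change of the 852 was 1.5 in the treated comparison and 0.50 in the untreated one, and that of the 375 was -1.28 and -0.34. Since the treated comparison chose these genes, its own medians are larger by that choice. Cervix and stage differed too, since 7 of the 10 treated and 2 of the 7 untreated dogs with pyometra had a closed cervix, and 2 of the 7 were in anestrus.

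The difference between the 2 comparisons was tested as the interaction of pyometra and treatment over the 48 dogs with a lesion. It was called for 600 genes (3.76%), 391 positive (2.45%) and 209 negative (1.31%). Among dogs in the diestrus stage 327 were positive and 75 negative. Over all 48 dogs, 351 of the 391 positive ones were among the rises of the treated dogs and 135 of the 209 negative ones among the falls. Without dogs 100 and 216, the most similar pair of arrays, 390 genes were called, 285 positive and 105 negative. The interaction was not fitted without untreated pyometra dog 207, whose SLPI of 6.61 lay in the range of untreated sterile lesions. An interaction does not tell which of the 4 groups set it, so levels of untreated dogs are given as well. IL1B had an interaction of 3.59 ± 0.45 (adjusted p = 2.08e-06, and 3.49 without the pair). It ran from 6.75 to 9.81 in treated pyometra, from 3.72 to 4.68 in treated sterile lesions, from 3.80 to 5.89 in untreated pyometra and from 3.46 to 6.27 in untreated sterile lesions. Every treated dog with pyometra was above every untreated one, and in untreated dogs the difference was 0.52 ± 0.26 (adjusted p = 0.174). S100A12 and SLC7A11 had interactions of 3.69 ± 0.70 (adjusted p = 0.000598) and 3.28 ± 0.88 (0.0124), with S100A12 at 4.72 to 11.11 in untreated pyometra and 4.52 to 7.40 in untreated sterile lesions. SLC7A11 ran from 5.33 to 8.43 (median 6.46) in untreated pyometra and from 4.70 to 9.94 (median 5.50) in untreated sterile lesions, so that some untreated sterile dogs exceeded all untreated dogs with pyometra. TNF had an interaction of 1.63 ± 0.28 (3e-04) with an untreated difference of 0.03 ± 0.18. On the other side ECRG4 had -3.48 ± 0.58 (adjusted p = 0.000202, and -3.38 without the pair) and an untreated difference of 0.32 ± 0.39, with 7.39 to 10.75 in untreated pyometra and 7.21 to 10.63 in untreated sterile lesions. MAMDC2 had -2.82 ± 0.49 (adjusted p = 0.000299), SLITRK6 -2.80 ± 0.71 (0.00781) and PKIB, an inhibitor of protein kinase A, -2.72 ± 0.54 (0.000881). MAMDC2 ran from 6.72 to 10.31 in untreated pyometra and from 7.91 to 10.59 in untreated sterile lesions, and SLITRK6 from 4.51 to 8.94 in untreated pyometra and from 5.49 to 9.94 in untreated sterile lesions. In PKIB the treated difference was -1.77 ± 0.39 (adjusted p = 0.00272) and the untreated one 0.96 ± 0.34 (0.0536).

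**Figure D4:**
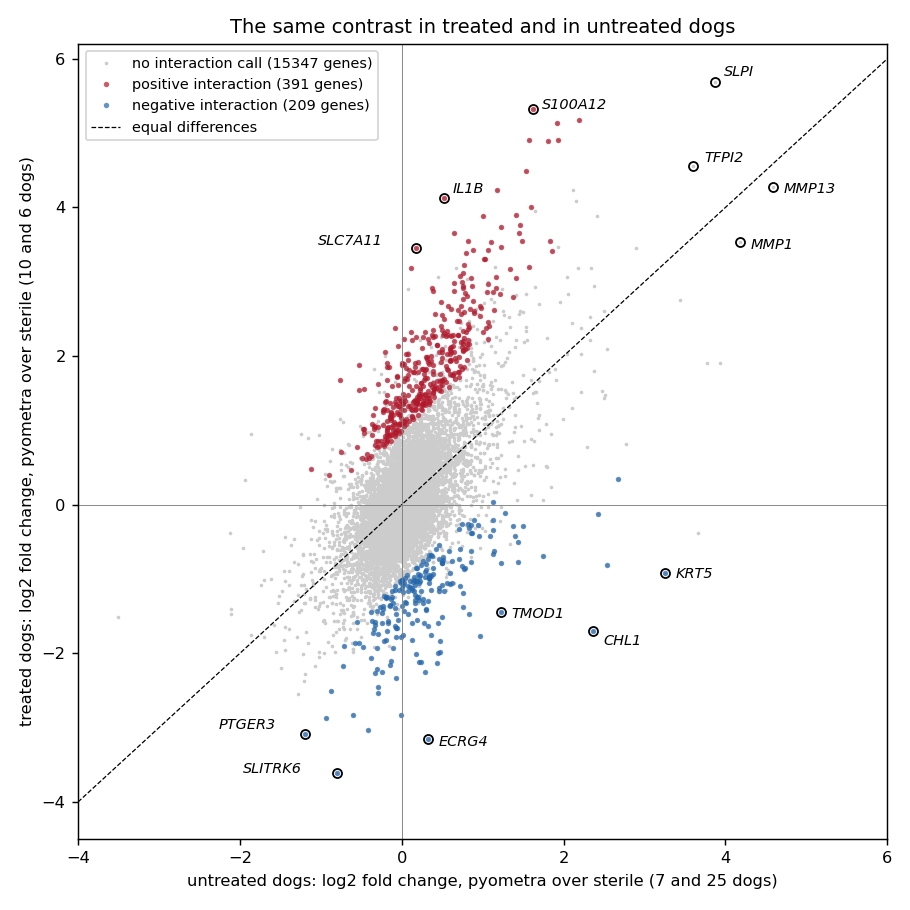
Log2 fold change of pyometra against sterile lesions in treated dogs (vertical axis) and in untreated dogs (horizontal axis) for 15947 genes, with the 391 genes of positive and the 209 of negative interaction coloured. IL1B lies at 4.12 in treated dogs and 0.52 in untreated dogs, and KRT5 at -0.92 and 3.25.

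By list, neutrophil markers had a positive interaction in 15 of 21 genes (13 without the pair of dogs), against 2.45% of all genes. In untreated dogs 4 of the 21 rose, with a median of 0.39. The list mean of untreated pyometra ran from -0.41 to 1.51 with a median of -0.26, against 1.24 for the lowest treated dog. Macrophage markers had a positive interaction in 10 of 17 genes, with or without the pair, and 6 of the 17 rose in untreated dogs. Endothelial markers had one in 10 of 17 (9 without the pair), and none of them was called in untreated dogs, whose median was -0.07. Cell cycle genes had one in 14 of 34, but in 6 without the pair, and untreated dogs had a median of 0.01. Smooth muscle markers had a negative interaction in 6 of 14 (4 without the pair), with a median of 0.33 in untreated dogs. None of the 22 hypoxia genes had one, and their median was 0.83 among treated and 0.68 among untreated dogs. B and plasma cell markers had 2 of 16, and none without the pair.

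Some of the largest differences of the treated dogs had no interaction called. SLPI rose by 3.87 ± 0.62 in untreated dogs (adjusted p = 0.000222), where pyometra ran from 6.61 to 13.32 and sterile lesions from 5.69 to 10.14. MMP13 rose there by 4.59 ± 0.62 (adjusted p = 2.49e-05), and its interaction was -0.32 with a 95% interval from -2.49 to 1.85. For MMP1 the interaction was -0.64 (-2.79 to 1.51), for IDO1 -0.68 (-2.71 to 1.35) and for TFPI2 0.96 (-1.30 to 3.23). These intervals are wide and leave differences of several fold in either direction.

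Of 13 squamous and basal epithelium markers, which belong to stratified epithelia, none was called in treated dogs, with a median of -0.14. In untreated dogs 5 rose, with a median of 0.81, and 2 of the 13 had a negative interaction (1 without dogs 100 and 216). KRT5, the keratin of basal cells, ran from 4.61 to 5.71 in treated pyometra, from 4.73 to 5.40 in 5 treated sterile dogs and at 10.23 in mucometra dog 216. In untreated pyometra it ran from 4.80 to 11.53 (median 9.01) and in untreated sterile lesions from 4.53 to 7.19. The untreated difference was 3.25 ± 0.52 (adjusted p = 0.000222) and the treated one -0.92 ± 0.60 (0.284), which without dog 216 was -0.06 (0.82). The interaction was -4.17 ± 0.83 (adjusted p = 0.00105), or -2.86 (0.00968) without dogs 100 and 216. SPINK5, a protease inhibitor of stratified epithelia, stood at 10.51 in dog 216 and between 4.07 and 5.0 in all other treated dogs. Its treated difference of -0.82 (adjusted p = 0.434) was 0.21 (0.298) without dog 216. Its interaction of -3.36 ± 0.93 (adjusted p = 0.015) was not called without the pair (-1.67, 0.139). The list mean of dog 216 was 1.94, and that of the treated dogs with pyometra ran from -0.25 to 0.39.

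CHL1, a cell adhesion molecule of nerve, ran from 4.47 to 6.37 in treated pyometra and from 5.20 to 10.84 in treated sterile lesions (-1.70 ± 0.63, adjusted p = 0.0552). The highest sterile value was that of dog 216, and without it the difference was -0.96 (0.102). The gene passed without CEH dog 81 (0.0216) or 162 (0.0461). In untreated dogs it was higher in pyometra, with 6.64 to 11.13 there and 4.98 to 10.37 in sterile lesions (2.36 ± 0.53, adjusted p = 0.00448). Every untreated dog with pyometra thus lay above every treated one, and the interaction was -4.06 ± 0.85 (adjusted p = 0.00171), or -2.99 (0.0186) without the pair. TMOD1, which caps the slow end of actin filaments, was the 1 gene called in opposite directions. It was lower in treated pyometra (-1.45 ± 0.49, adjusted p = 0.0378) and higher in untreated pyometra (1.22 ± 0.39, 0.0361), with values of 6.71 to 9.01 in treated pyometra and 9.58 to 11.22 in untreated pyometra. The treated call was lost on leaving out any 1 of CEH dog 29, the mucometra dogs and pyometra dogs 185, 186, 205, 213 and 228 (adjusted p 0.0543 to 0.1), while the interaction was called with and without the pair (-2.67 and -2.27, adjusted p = 0.00589 and 0.0382).

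**Figure D5:**
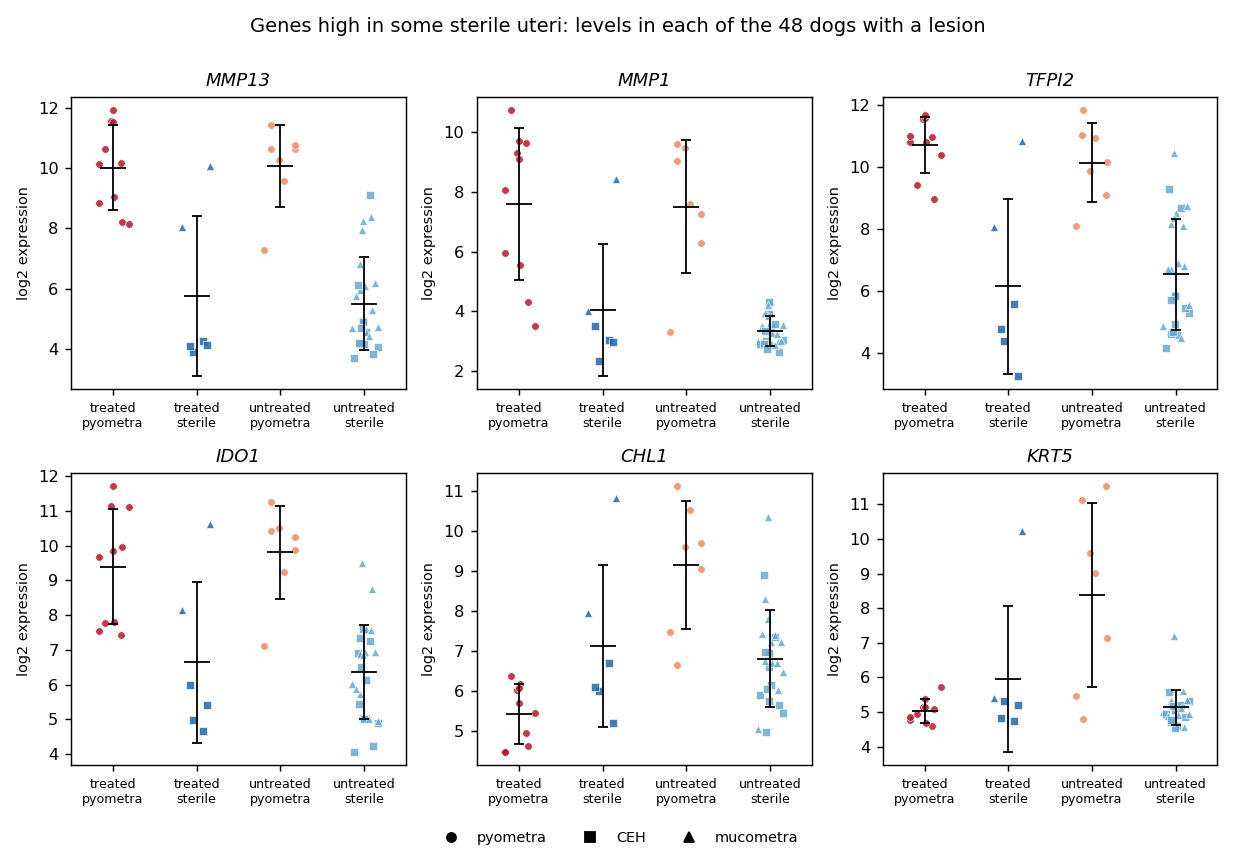
Log2 expression of MMP13, MMP1, TFPI2, IDO1, CHL1 and KRT5 in each dog of the 4 lesion groups (treated pyometra, treated CEH or mucometra, untreated pyometra, untreated CEH or mucometra), with mean and SD. Medians of MMP13 are 10.16 in treated and 10.64 in untreated pyometra, MMP1 reaches down to 3.51 in treated and 3.31 in untreated pyometra, and KRT5 spans 4.61 to 5.71 in treated and 4.80 to 11.53 in untreated pyometra, with dog 216 at 10.23.

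Within each group some dogs stood apart over many genes. On the first principal component dog 213 lay at 2.1 and the other dogs with pyometra between 17.5 and 49.6, and the mucometra dogs lay at -23.4 and -23.6 and the CEH dogs between -70.1 and -53. The median SD over all genes was 0.268 in treated pyometra and 0.298 in treated sterile lesions. Among the 852 genes that rose, the dog with pyometra nearest to the sterile range was dog 213 in 210 genes, and 12 to 119 for each other dog. The sterile dog nearest to pyometra was mucometra dog 182 in 288 genes, mucometra dog 216 in 229 and each CEH dog in 44 to 111. Among the 375 genes that fell, dog 213 was nearest in 147 and dog 229 in 93, and of the sterile dogs 216 in 117, 81 in 108 and 182 in 97. Left out one at a time, dog 213 gave 1335 called genes, dog 182 gave 1336 and dog 216 gave 1347, against 1227 with all 16 dogs.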

How the data were processed

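Endometrium of 69 dogs was hybridised to Affymetrix Canine Gene 1.0 ST arrays. The authors corrected the background and normalized all arrays together by RMA with quantile normalization, and deposited 1 log2 value per probe set. The study names Genotyping Console and limma as its software, and the version of RMA was not found in its text. Dogs titled mucometra, 182 and 216 included, carry hemometra as a second label, and the titles were followed. Treatment, stage and cervix were read by eye from colour bars drawn in the study, which show dog 216 in anestrus with an open cervix. Every other dog without pyometra was drawn with a closed cervix, and the cervix bar may apply to pyometra only. All value columns were used. Of 32391 probe sets, 16545 carried 1 gene symbol, 370 several and 15476 none. Per gene the probe set with the highest mean was kept, which left 15947 genes and set 598 aside, and 15265 symbols matched RefSeq genes of UU_Cfam_GSD_1.0, used for names only. No sequence was used here.

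Groups were compared with limma 3.58.1 (lmFit, eBayes) in R 4.3.3, and drawings used Python 3.11.15, pandas 2.3.3 and matplotlib 3.10.9. The treated comparison held the 16 dogs, the untreated one 32 and the interaction 48, with no other covariates. A call needed a fold change of 2 and a Benjamini-Hochberg adjusted p under 0.05, after the study's methods, whereas its gene tables name a Bonferroni correction, tried here as an alternative. At an unadjusted p under 0.05 and the same fold, 1309 genes passed in treated and 338 in untreated dogs. The treated and interaction fits were tested on simulated data with known changes. Arrays carry no read depth, so the number of dogs sets the precision.

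The members and lists were chosen with earlier results of these data known. The 32 lists (13 of cell types, 19 of pathways) hold 639 genes, of which 581 were measured, and were not tested as sets. Named genes were the 12 largest rises and falls, up to 4 called members of each list, the receptors PGR, ESR1 and ESR2, genes the study names for treated pyometra, and the 6 largest interactions each way among called genes. Further genes were chosen after their values were seen: TMOD1, PTGFR, PTGIS, PTGDS, TLR2, TLR4, CXCR2, CSF3R, TGFB2, MMP16, PLIN4, NDP, LRAT, AFMID, OAS2 and SPINK5. Alternatives covered the adjustment, fold filter, dim genes, choice of probe set, centring, array weights, stage, cervix, case number, kind of sterile lesion and single dogs.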

Additional observations from a re-analysis of the deposited data

Results flagged for a closer look

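In 396 checks of a gene in a group of 6 to 10 dogs, 30 values stood far from the rest of their group, where chance flags about 1 in 20 groups. The genes were chosen by their values in these data, so that rate need not hold for them, and the count was not tested against it. Among treated dogs with pyometra, dog 213 was lowest in IL6 (5.41, next 7.5), DHRS9 (9.15, next 10.73) and RBP4 (10.50, next 12.30) and highest in MSX2 (7.38, next 6.68). Dog 205 was lowest in ADAMTSL3 (5.23, next 6.77), RSPO3 (5.54, next 7.87) and HOXA10 (5.99, next 7.05) and highest in ISG20 (9.92, next 8.83), and dog 218 was highest in PTGDS (9.92, next 8.58).

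Among treated dogs with sterile lesions, mucometra dog 216 was highest in KRT5 (10.23, next 5.40), SPINK5 (10.51, next 4.77), MMP1 (8.43, next 4.02) and MMP12 (8.05, next 4.99) and lowest in STK32B (4.94, next 7.37). The array most similar to that of dog 216 was that of untreated pyometra dog 100 (SD of the differences 0.237), and the part of this in its values was not tested. Mucometra dog 182 was highest in MZB1 (8.41, next 6.84) and CD79A (8.09, next 5.80). CEH dog 81 was highest in TGFB2 (11.26, next 8.62) and lowest in ANGPTL1 (6.15, next 7.35) and CXCR2 (4.39, next 4.80). CEH dog 162 was highest in IL1B (4.68, next 4.0) and CEH dog 196 in ATP12A (10.33, next 5.97).

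Among untreated dogs with pyometra, dog 225 was highest in CXCL10 (10.17, next 7.33), IL1A (9.31, next 6.71) and GBP5 (5.76, next 4.27) and lowest in MAMDC2 (6.72, next 9.23), PGR (7.96, next 9.31) and TGFB2 (6.77, next 7.72). Dog 207 was highest in LIN7A (7.79, next 6.18) and STK32B (7.99, next 6.09), and dog 198 was lowest in E2F1 (4.68, next 5.50). Dog 207 was also the lowest untreated dog with pyometra in SLPI (6.61), PI3 (6.22), S100A8 (5.86) and MMP1 (3.31). These values lay within the range of untreated sterile lesions. The part of dog 207 in the untreated differences and the interactions was not tested.

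The interaction test called 72 of the 132 named genes (limma, adjusted p from 2.08e-06 to 0.0482), 49 positive and 23 negative. Of all 15947 genes it called 600 (3.76%). Most genes were named for their treated difference, which is part of the interaction, and some for the interaction itself. The share among named genes is larger by that choice. Without dogs 100 and 216 the interaction was called again for 56 of the 72. The 16 that were not were LTF, SAA1, SERPINE2, IL1A, MZB1, MMP9, SLCO2A1, RRM2, KIF11, ALDH1A1, PLN, ESR1, PTGFR, TLR4, SPINK5 and SLC1A4, with adjusted p between 0.0519 and 0.171. All interactions here are log2 differences, treated minus untreated.

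In antimicrobial, antiprotease and fibrinolysis genes and an acute phase protein the interaction was 2.96 for PI3, 2.89 for LTF, 3.08 for SAA1, 1.56 for SERPINE2 and 1.79 for PLAU. In neutrophil genes it was 3.69 for S100A12, 2.99 for S100A8, 3.34 for S100A9, 1.66 for CXCR2, 1.78 for CSF3R and 2.07 for MMP9. In cytokines and chemokines it was 3.59 for IL1B, 2.45 for IL1A, 2.01 for IL1RN, 1.63 for TNF, 3.21 for CXCL8 and 2.54 for CCL3. In genes of LPS recognition and breakdown it was 1.73 for CD14, 1.32 for TLR8, 1.53 for TLR1, 1.33 for TLR2, 1.05 for TLR4 and 2.37 for AOAH. In macrophage genes it was 3.05 for ADGRE1, 2.30 for MS4A7, 2.43 for FCGR1A and 1.81 for TYROBP, in plasma cells 1.79 for MZB1, and in the T and NK cell list 2.18 for CD4. It was 2.97 for SMPDL3A.

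In tryptophan breakdown it was 2.39 for KMO, 1.18 for KYNU and 1.24 for AFMID, and outside it 2.08 for C5AR1 and 1.74 for ISG20. In endothelial genes it was 1.85 for PLVAP, 1.52 for SELP, 1.42 for PECAM1 and 1.12 for VWF. In cell cycle genes it was 2.27 for RRM2, 2.08 for KIF11 and 1.43 for E2F1. In metabolism it was 3.28 for SLC7A11, 1.76 for SLC1A4, 2.16 for DGAT2, 1.44 for PLIN2 and 1.32 for CYP26B1. In prostaglandin genes it was 1.47 for PTGES, 1.76 for SLCO2A1, -1.89 for PTGER3 and -1.44 for PTGFR.

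The negative ones further included -2.80 for SLITRK6, -3.48 for ECRG4, -2.61 for DPP6, -1.93 for ENPP6, -2.23 for ANGPTL1, -2.82 for MAMDC2, -2.24 for ADAMTSL3, -1.63 for LOC609770, -2.16 for RSPO3 and -1.39 for MMP16. In smooth muscle it was -2.36 for MYH11, -2.01 for PLN and -1.70 for SYNPO2. It was -1.29 for ESR1, -2.72 for PKIB, -2.67 for TMOD1, -4.06 for CHL1, -4.17 for KRT5, -3.36 for SPINK5, -2.56 for ALDH1A1 and -1.20 for CCDC39.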

How the results depend on the processing

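All 1227 genes called in the treated dogs kept their direction under every setting tried but 1, as far as they were tested there (1162 where the mean had to exceed log2 5). Against the 2 mucometra dogs alone 1208 did, and 504 were called again. With no fold filter 4356 genes passed, 2210 higher and 2146 lower. With a Bonferroni adjustment 275 did, 205 higher and 70 lower, with 52 list members called against 217 by Benjamini-Hochberg. Lower genes numbered 572 among dogs in the diestrus stage and 568 with stage as a covariate. Against mucometra alone 728 genes were called, 482 higher and 246 lower, with 112 list members. Leaving out 1 dog gave 1120 (without CEH dog 29) to 1347 (without mucometra dog 216) genes, 773 to 919 higher, 329 to 431 lower and 201 to 230 list members. Among lists with few calls, leaving out 1 dog moved the count of stromal markers to 0 (without dog 206, 228, 29, 81 or 196) or 2 (231). It moved that of simple epithelium between 0 (185, 186, 222, 231, 29, 81 or 162) and 3 (229 or 196), that of immediate early genes between 1 (185, 186, 206 or 162) and 4 (81 or 196), and that of steroid genes to 5 (213 or 182). It moved that of T and NK cells to 1 (29, 81 or 196) or 5 (182 or 216), that of retinoic acid genes to 3 (29 or 81), of ciliated epithelium to 2 (29) and of interferon genes to 3 (81), and without dog 216 squamous markers had 1 and mast cell markers 2. The untreated comparison gave 159 genes in the diestrus stage (143 higher, 16 lower), 465 with diagnosis as a second factor (351 and 114) and 44 by Bonferroni (42 and 2). The interaction gave 75 lower genes in the diestrus stage, 70 genes by Bonferroni (52 and 18), and 390 without dogs 100 and 216, of which 105 were lower. No called gene named here reversed except CD2 and CD3D against mucometra alone (-0.15 each). Uncalled genes that changed sign were KRT5 (0.11 in the diestrus stage and with stage as a covariate, 0.01 against CEH alone), ESR2 (0.63 against mucometra alone, 0.01 with the case number) and SPINK5. SPINK5 was 0.39 in the diestrus stage and with stage as a covariate, 0.32 against CEH alone, 0.26 without dogs 205 and 216 together, and -1.07 to 0.21 on leaving out 1 dog. Arrays centred on their medians gave 63.4% of calls as higher, against 69.4%. With the case number as a covariate 887 genes were called, 771 of them among the 1227. Of the 132 named genes, 76 were no longer called by Bonferroni. Against mucometra alone 58 lost the call, besides CD2 and CD3D, which reversed. The call was lost for 34 with the case number, 12 with only the 7 pyometra dogs of closed cervix and 7 in the diestrus stage. Those 7 were ALDH1A1, ATP12A, JUN, NDP, PTGDS, PTGIS and TMOD1. No paired analysis was possible because each case number belongs to 1 dog. The exclusion of dogs 100 and 216, and of dogs 205 and 216, was chosen after seeing the data. Causes of these changes were not tested. With 6 sterile dogs, 2 of them with mucometra, the number of arrays limits the precision of every value.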
